A study of Mus musculus with 4 samples.

Results

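The 7 genes described here are Il10, which encodes the cytokine interleukin 10, the genes of its receptor chains Il10ra and Il10rb, and the transcription factor genes Maf, Nfil3, Ahr, and Stat3. They were chosen by symbol from the 31053 genes of the deposited single-cell RNA-Seq table. The study cultured B cells purified from the spleens of WT C57BL/6 mice and measured their mRNA cell by cell. For Bregs-CpG (n = 2 samples), B cells were kept for 3 days with CpG B ODN 1668, a DNA oligonucleotide that engages TLR9. For Bregs-TLR (n = 2 samples), the same 3 days of CpG ended with 5 hours in which LPS, a TLR4 agonist, PMA, an activator of protein kinase C, and ionomycin, a calcium ionophore, were also present. CpG was thus present in both groups, an untreated group was not analysed here, and the number of mice behind a sample was not given in the sources used here. The mice were 6 to 12 weeks old.

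IL-10 is a secreted cytokine that restrains inflammatory responses, and B cells that make it are among the cells called regulatory B cells (Bregs). It binds a receptor of 2 chains: IL-10Rα, encoded by Il10ra, gives the receptor its specificity, and IL-10Rβ, encoded by Il10rb, is shared with receptors of related cytokines. The receptor acts through the kinases JAK1 and TYK2 on STAT3, which enters the nucleus and turns on genes such as Socs3, a feedback inhibitor of cytokine signaling. The proteins of Maf (c-MAF), Nfil3, and Ahr (the aryl hydrocarbon receptor) are transcription factors known to promote Il10 transcription in several immune cell types.

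From 19920 barcodes, 18534 cells were used, after removal of those in which fewer than 1000 genes were found or mitochondrial UMIs reached 10%. A UMI (unique molecular identifier) stands for 1 captured mRNA molecule. The cells came from 4 libraries, numbered 5 to 8 by the endings of their barcodes, with 4003 to 5621 kept cells, 44842982 to 63638158 UMIs per library, and median depths of 8752 to 10355 UMIs per cell. No label tied a library number to a culture, so no library was assigned to Bregs-CpG or Bregs-TLR, and no test between the cultures was made. Values were given by library, and libraries 5 and 6 were set beside libraries 7 and 8. This pairing was made with earlier results of these data known. The border between libraries 6 and 7 was the sharpest shift in expression along the columns (percentile 100), and those between 5 and 6 and between 7 and 8 lay at percentiles 92.6 and 96.4. These percentiles compare 400 columns on each side of every position, so windows across the border of libraries 6 and 7 take up many of the highest values. They do not show that the borders within the pairs lacked a shift. Il10 was found in 9 of the last 200 cells before and 134 of the first 200 cells after the border of libraries 6 and 7. Any 2 libraries had 1 to 8 barcode sequences in common, and the 9 to 17 kept cells per library that carried one included 0, 2, 15, and 6 cells with Il10 in libraries 5, 6, 7, and 8, out of 314, 351, 3950, and 2868 cells with Il10.

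The label of B cells was checked against marker genes. Cd79a, which encodes a chain of the B cell receptor complex, was at 1033 to 3239 CPM (UMIs of the gene per 1e+06 UMIs) in the 4 libraries. All 5 B cell markers were lower in libraries 7 and 8, and Ms4a1, which encodes CD20, was at 1499 and 1510 CPM in libraries 5 and 6 and at 32.0 and 37.0 CPM in libraries 7 and 8. The defining markers of T cells Cd3e, Cd4, and Cd8a, and the NK cell marker Ncr1, had no UMI in any kept cell. The 5 T cell markers together reached 0.0943 to 0.232 CPM, the 3 NK cell markers 0 to 0.112 CPM, and the 5 myeloid markers 0.416 to 2.98 CPM. The myeloid and dendritic cell lists were higher in libraries 5 and 6, with Itgam at 1.83 and 2.44 CPM against 0.676 and 0.416 CPM and Flt3 at 4.17 and 5.36 CPM against 0.189 and 0.241 CPM. Their part in the results was not tested. Of the 4 plasma cell markers, Sdc1 was higher (log2 ratio 5.06) and Mzb1 lower (−3.27) in libraries 7 and 8, and Jchain and Xbp1 were neither. Of the 3 cycling cell markers, Mcm3 was higher (1.46), Mki67 lower (−1.1), and Top2a neither. The 2 red cell markers together stayed at or below 0.660 CPM. The median mitochondrial share was 7.22% and 7.18% in libraries 5 and 6 and 4.61% and 4.65% in libraries 7 and 8, and its part in the results was not tested either.

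Il10 lies on chromosome 1 (GRCm38 131019845 to 131024974, plus strand, GENCODE vM21) and overlaps no other annotated gene. Its level was 13.7 CPM (95% Poisson interval 12.6 to 14.8) in library 5 and 11.1 CPM (10.2 to 12) in library 6. In library 7 it was 255 CPM (251 to 259), and in library 8 it was 253 CPM (248 to 257). The values of libraries 7 and 8 lay within each other's intervals, library 5 was slightly above library 6, and the library pairs did not overlap. These intervals, like all others below, cover counting error only and leave out variation between mice and cultures. Intervals of CPM also leave out any variation between cells beyond counting. Summed over the pairs, Il10 was 20.7-fold higher in libraries 7 and 8 (log2 ratio 4.37, 95% interval 4.29 to 4.45), and the ratios of single libraries ranged from 4.21 to 4.52 on the log2 scale. Among the 11174 genes with at least 100 UMIs over all kept cells, it ranked 67 by this ratio, counting genes with no UMI in libraries 5 and 6 as higher. In these data a lower share of producing cells and less mRNA per producing cell both lower the CPM, and the share of cells is therefore given next.

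**Figure D1:**
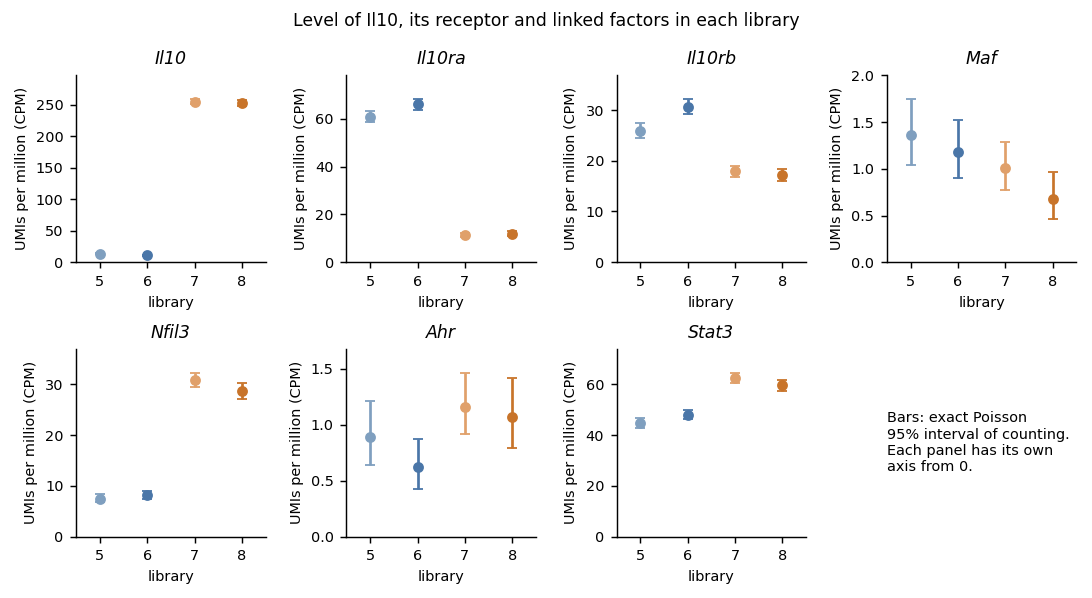
Level of each of the 7 genes in CPM (vertical axes from 0, 1 scale per gene) in libraries 5, 6, 7, and 8, with exact Poisson 95% intervals of counting. Il10 and Nfil3 stood higher in libraries 7 and 8, Il10ra stood lower, Il10rb and Stat3 moved less, and the intervals of Maf and Ahr were wide.

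Il10 was detected in most cells of libraries 7 and 8 and in few cells of libraries 5 and 6. With every cell thinned to 5000 UMIs, so that cells of unequal depth can be compared, 3.96% of 4038 cells (Clopper-Pearson interval 3.38% to 4.61%) in library 5 and 3.61% of 4600 cells (3.09% to 4.19%) in library 6 held an Il10 UMI. The shares were 56.7% of 5388 cells (55.3% to 58.0%) in library 7 and 57.4% of 3846 cells (55.8% to 59.0%) in library 8. Thinning left out 158, 114, 233, and 157 shallower cells in libraries 5 to 8. Without thinning the shares were 7.48%, 7.45%, 70.3%, and 71.6%. A cell type that should lack Il10 was not present at a measurable number, so the share of cells that free RNA alone would give was not measured.

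The Il10 UMIs of each library pair were set beside those of 3 other genes that were higher in libraries 7 and 8. There were 10.9 Il10 UMIs per UMI of Il19, which encodes a cytokine of the IL-10 family, in libraries 7 and 8, and 108 per Il19 UMI in libraries 5 and 6 (1187 against 11 UMIs). For Il1rn, which encodes the interleukin 1 receptor antagonist, the corresponding values were 5.94 and 45.7, and for Sdc1, which encodes the plasma cell marker CD138, they were 36.8 and 59.4. The ratio thus differed between the pairs by less for Sdc1 than for Il19 and Il1rn. All 3 genes had a larger log2 ratio than Il10 (Il19 7.68, Il1rn 7.31, and Sdc1 5.06, against 4.37). More Il10 UMIs per UMI of these genes in libraries 5 and 6 was therefore fixed by their choice and is no separate result. The source of the Il10 UMIs in libraries 5 and 6 was not tested. The cells with Il10 in libraries 5 and 6 held Ms4a1 at 1619 and 1635 CPM, and those without Il10 held it at 1526 and 1559 CPM. In libraries 7 and 8, Ms4a1 was at 31.9 and 31.5 CPM in cells with Il10 and at 32.7 and 51.9 CPM in cells without Il10. Cd79b, which encodes the other chain of the B cell receptor complex, was at 1859 and 1773 CPM in cells with Il10 and at 2308 and 2391 CPM in cells without Il10 of libraries 5 and 6. In libraries 7 and 8 it was at 288 and 302 CPM in cells with Il10 and at 345 and 372 CPM in cells without Il10.

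Il10 was unevenly spread over the cells. In library 7, 21.7% of the thinned cells held 1 Il10 UMI, 15.6% held 2, 14.5% held 3 to 4, and 4.81% held 5 to 9, and 5 cells held 10 or more. Library 8 had 22.5%, 15.9%, 14.7%, and 4.0% in these classes, and 7 cells with 10 or more. Of the cells in libraries 5 and 6, 117 and 130 held 1 Il10 UMI, 29 and 26 held 2, 12 and 9 held 3 to 4, and 2 and 1 held 5 to 9, the highest values being 7 and 5. The highest value was 33 in a cell of library 7 and 14 in library 8. Positive cells held a mean of 1.41, 1.29, 2.30, and 2.24 Il10 UMIs in libraries 5 to 8. A cell counted as positive holds at least 1 UMI by definition, so these means do not separate fewer producing cells from less mRNA per cell. The variance of Il10 was 2.09 and 1.91 times its mean in libraries 7 and 8, where genes of like mean had a median of 1.1 in both. For libraries 5 and 6, it was 1.85 and 1.54 times the mean, against 1.02 and 1.01. The tenth of cells with most Il10 carried 37.9% and 36.8% of all Il10 UMIs in libraries 7 and 8.

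**Figure D2:**
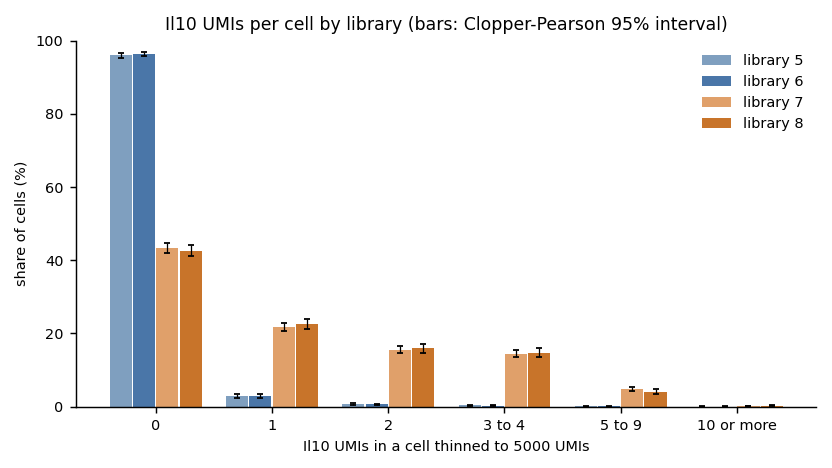
Share of cells (percent, vertical axis) by the number of Il10 UMIs after thinning to 5000 UMIs per cell (horizontal axis), for libraries 5 to 8, with Clopper-Pearson 95% intervals. In libraries 5 and 6, 96.0% and 96.4% of cells held none, against 43.3% and 42.6% in libraries 7 and 8.

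In libraries 7 and 8, Il10 made up a smaller share of the mRNA of cells classed as dividing by Mki67, which held more UMIs in all. Cells with at least 3 UMIs of Mki67, which encodes the proliferation antigen Ki-67, had 210 CPM (196 to 224) in library 7 and 228 CPM (212 to 244) in library 8, and cells with no Mki67 UMI had 261 CPM (257 to 265) and 257 CPM (253 to 262). Per cell, the order was the opposite, with means of 3.89 and 4.25 Il10 UMIs in the cells with Mki67 and 2.84 and 2.81 in those without it, at median depths of 17142 and 16697 UMIs against 10119 and 9862. The intervals of these classes overlapped in the other 2 libraries, at 10.3 and 13.6 CPM in library 5 and 11.7 and 10.9 CPM in library 6. Cells with at least 10 UMIs of Jchain, the joining chain of secreted antibody, were few. They had 244 CPM of Il10 (210 to 282) in library 7 and 183 CPM (144 to 228) in library 8, where cells with no Jchain UMI had 256 CPM (252 to 260) and 254 CPM (249 to 259). These classes are ranges of a count: 131 and 102 cells of libraries 7 and 8 held 2 to 4 Mki67 UMIs, near the limit. The counts were not thinned, so deeper cells reach the Mki67 limit more readily. No comparison of these classes at equal depth was made.

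The receptor chain that binds IL-10 ran opposite to the cytokine. Il10ra (chromosome 9, 45253837 to 45269149, minus strand) was at 60.9 CPM (58.7 to 63.3) in library 5 and 66.1 CPM (63.9 to 68.3) in library 6, and at 11.5 CPM (10.6 to 12.3) in library 7 and 12 CPM (11.0 to 13) in library 8. The pairs did not overlap, and the level in libraries 5 and 6 together was 5.45-fold that in libraries 7 and 8 (log2 ratio −2.45, interval −2.53 to −2.36). After thinning, 25.8% and 28.0% of cells held an Il10ra UMI in libraries 5 and 6, against 5.88% and 6.06% in libraries 7 and 8. The shared chain gene Il10rb (chromosome 16, 91406164 to 91425834, plus strand) was at 25.9 and 30.6 CPM in libraries 5 and 6 and at 17.9 and 17.1 CPM in libraries 7 and 8. It did not overlap between the pairs, but its log2 ratio of −0.69 (interval −0.78 to −0.61) fell short of 2-fold. Exons of Il10rb overlap those of the annotated gene Gm21970 on the same strand, so the assignment of its reads is uncertain.

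Of the 4 transcription factor genes, Nfil3 was higher in libraries 7 and 8. NFIL3 is a basic leucine zipper protein that acts as a repressor or activator, depending on the gene. Nfil3 was at 7.49 CPM (6.71 to 8.34) in library 5, 8.15 CPM (7.39 to 8.97) in library 6, 30.8 CPM (29.4 to 32.2) in library 7, and 28.6 CPM (27.1 to 30.2) in library 8. The pairs did not overlap, with a 3.81-fold higher level in libraries 7 and 8 (log2 ratio 1.93, interval 1.81 to 2.04). The share of thinned cells with an Nfil3 UMI was 3.27% and 3.72% in libraries 5 and 6 and 13.9% and 12.6% in libraries 7 and 8.

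Stat3, which encodes the main transducer of the IL-10 receptor, was at 44.7 and 48.1 CPM in libraries 5 and 6 and at 62.4 and 59.6 CPM in libraries 7 and 8. These values did not overlap between the pairs, and the log2 ratio of 0.40 (interval 0.34 to 0.45) was under 2-fold. Stat3 (chromosome 11, minus strand) overlaps Stat5a on the opposite strand, and whether reads were counted by strand was not given in the sources used here.

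Maf and Ahr were close to the detection limit in all libraries. Maf had 61, 61, 64, and 31 UMIs in libraries 5 to 8 (1.36, 1.18, 1.01, and 0.679 CPM) and was found in 0.390% to 0.669% of thinned cells. Ahr had 40, 32, 74, and 49 UMIs (0.892, 0.620, 1.16, and 1.07 CPM), in 0.217% to 0.546% of thinned cells. For Maf, the log2 ratio was −0.54 (interval −0.94 to −0.14), and for Ahr it was 0.59 (interval 0.16 to 1.03), both under 2-fold. With cells thinned to 5000 UMIs, the log2 ratio of Ahr was 1.20. Counts this low do not show that the proteins were absent. Gm15655 and Gm48236 are annotated opposite Maf and Ahr, on the other strand.

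In all, 2 of the 7 genes (Il10 and Nfil3) were at least 2-fold higher in libraries 7 and 8 without overlap of the libraries, 1 (Il10ra) was at least 2-fold lower, and 4 were neither. Over all 11174 genes, 14.9% were higher and 15.7% lower by the same rule, so such a difference was common in these libraries. The median log2 ratio was 0.40 over the 7 genes and 0.12 over all genes.

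The promoters of Nfil3, the factor gene that was higher, and of Stat3, which was not past 2-fold, are shown from RefSeq on GRCm38.p6, which held windows for 2 of the 7 genes. The stretch for Nfil3 is chr13:52981074-52981289 and that for Stat3 is chr11:100939541-100939790, both on the minus strand and ending at the start of the gene as GENCODE gives it. Capitals mark the letters CCAAT and TGCTGA or their reverse complements.
Nfil3: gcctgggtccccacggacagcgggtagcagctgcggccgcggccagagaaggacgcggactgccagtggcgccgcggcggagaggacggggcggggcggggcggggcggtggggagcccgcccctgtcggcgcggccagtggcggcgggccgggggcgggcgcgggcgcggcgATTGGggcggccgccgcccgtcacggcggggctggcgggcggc
Stat3: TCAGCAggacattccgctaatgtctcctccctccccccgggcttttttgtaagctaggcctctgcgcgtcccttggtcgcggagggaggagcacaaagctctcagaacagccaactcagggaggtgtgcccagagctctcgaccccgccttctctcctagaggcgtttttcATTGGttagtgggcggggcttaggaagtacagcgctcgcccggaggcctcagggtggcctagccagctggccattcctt
The bases G and C made up 84.7% of the Nfil3 stretch and 60.8% of the Stat3 stretch. Each held 1 match to CCAAT, which 33.8% of the 32851 promoters searched over 250 bases also held. TGCTGA, part of the site that MAF proteins bind, was found once upstream of Stat3 and in 16.1% of promoters. The letters TTCNNNGAA of a STAT site, TTANGTAA of an NFIL3 site, and GCGTG of an AHR site were in neither, and in 7.02%, 2.06%, and 28.2% of promoters. All motifs were searched on both strands, and a match is a description of the letters only.

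Which of the genes were found in the same cells as Il10 was examined next. In libraries 7 and 8, 5260 thinned cells held an Il10 UMI (Il10-positive) and 3974 did not. Nfil3, although higher in these libraries, was found in 13.8% of Il10-positive cells (12.9% to 14.7%) and 12.9% of Il10-negative cells (11.9% to 14.0%). Stat3 was found in 24.3% and 25.9%, Il10ra in 6.29% and 5.51%, and Il10rb in 8.35% and 8.0%. Maf was found in 0.437% and 0.604%, and Ahr in 0.513% and 0.554%. The intervals of positive and negative cells overlapped for all 6 genes. Without thinning, 70.8% of the cells in libraries 7 and 8 held an Il10 UMI, against 57.0% after it. Some cells counted as Il10-negative thus held Il10 before thinning, which can make a difference smaller. Overlap therefore does not show that a gene was unrelated to Il10 within cells. The log2 ratio of the Nfil3 level in Il10-positive over Il10-negative cells was 0.10, with an interval of −0.05 to 0.26. For Stat3 it was −0.09 (interval −0.20 to 0.02).

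In libraries 5 and 6, 326 thinned cells were Il10-positive and 8312 Il10-negative. Il10ra was found in 19.3% of the positive cells (15.2% to 24.0%) and 27.2% of the negative cells (26.3% to 28.2%), the only 1 of the 6 genes with separate intervals. By library, the shares were 15.0% and 26.2% in library 5 and 23.5% and 28.1% in library 6, where the intervals overlapped. The intervals of Il10ra overlapped without library 5, with cells thinned to 3000 UMIs, and with Il10-positive set at 3 UMIs or more. Stat3 was found in 20.6% and 20.1%, Il10rb in 11.0% and 13.4%, Nfil3 in 4.29% and 3.48%, and Maf and Ahr each in 1 Il10-positive cell. Over all other genes tested, intervals were separate for 5.58% (more often in Il10-positive cells) and 2.69% (less often) in libraries 5 and 6, and for 1.80% and 0.976% in libraries 7 and 8. Before thinning, Il10-positive cells were deeper than Il10-negative cells, with medians of 9976 and 8844 UMIs in library 5, 10803 and 8820 in library 6, 10586 and 10468 in library 7, and 10329 and 10095 in library 8. Its part in the differences was not tested.

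**Figure D3:**
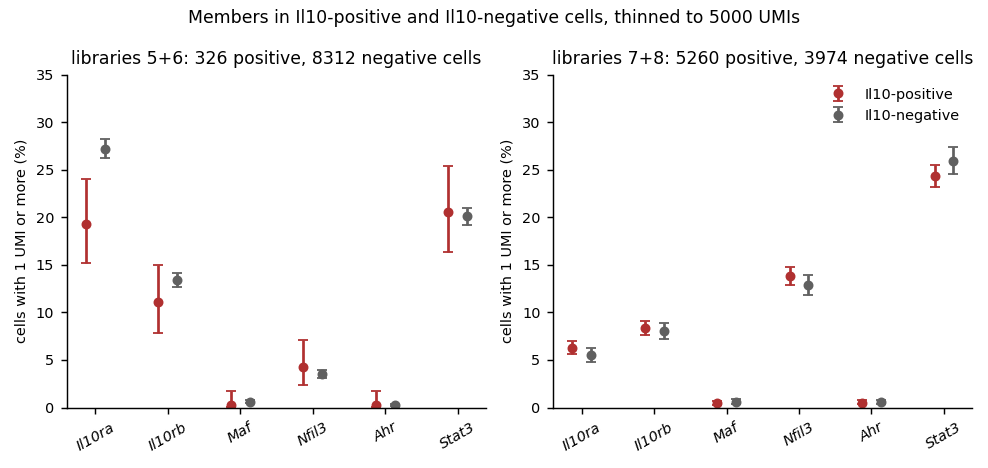
Share of thinned cells with at least 1 UMI of each of the other 6 genes (percent, vertical axis) among Il10-positive (red) and Il10-negative (grey) cells of libraries 5+6 (left) and 7+8 (right), with Clopper-Pearson 95% intervals. Only Il10ra in libraries 5 and 6 had separate intervals, at 19.3% and 27.2%.

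The levels of Nfil3 and Stat3 were also compared between cells with different numbers of Il10 UMIs, and their intervals overlapped between the lowest and the highest class. In library 7, Nfil3 was at 31.1 CPM in cells without Il10 and at 34.1 CPM in cells with 5 or more Il10 UMIs, and in library 8 at 28.2 and 26.1 CPM. Stat3 was at 62.0 and 53.0 CPM in library 7 and at 62.4 and 59.6 CPM in library 8. Across cells, the mean Pearson r of the 6 genes with Il10, on the log of 1 plus UMIs, ran from −0.037 (Il10ra) to 0.019 (Ahr) in libraries 5 and 6 and from −0.019 (Stat3) to 0.016 (Ahr) in libraries 7 and 8. The median r of all ranked genes was 0.0037 in libraries 5 and 6. Cells of a library share its depth and free RNA, and correlations in such sparse counts are small, so these values are descriptions.

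The genes whose pattern across cells was most like that of Il10 were ranked among genes found in at least 10% of thinned cells. In libraries 7 and 8 (4361 genes), the highest mean r belonged to Gadd45b (0.147), a stress-induced gene, Cd44 (0.139), an adhesion receptor, Srgn (0.116), a granule proteoglycan, Zbtb32 (0.115), a transcriptional repressor, and Dusp2 (0.113), a MAP kinase phosphatase. The lowest values were those of Irf8 (−0.093), Cd38 (−0.075), and Ly6e (−0.075). In libraries 5 and 6 (4121 genes), the highest were Ccnd2 (0.133), which encodes cyclin D2, Bcl2a1b (0.118), a survival gene, Eif4a1 (0.099), Gadd45b (0.098), and Ncl (0.095), and the lowest were Cd79b (−0.129), Fau (−0.110), and Rps9 (−0.105). Gadd45b was among the 5 highest in both pairs.

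Genes that IL-10 is known to induce through STAT3 were divided, and whether IL-10 caused their differences was not tested. Of 10 such genes, 4 were higher in libraries 7 and 8, 1 was lower, and 5 were neither, with a median log2 ratio of 0.28. By the same rule, 14.9% of all 11174 genes were higher and 15.7% lower. This list and those below were short and chosen with earlier results of these data known. Il1rn was at 0.223 and 0.310 CPM in libraries 5 and 6 and 44.8 and 40.05 CPM in libraries 7 and 8 (log2 ratio 7.31, interval 6.76 to 7.93). Socs3 was at 36.4, 42.1, 167, and 150 CPM in libraries 5 to 8 (log2 ratio 2.02). Pim1, a survival kinase gene, had a log2 ratio of 1.12, Sbno2, named after its values were seen, one of 1.03, and Mcl1, a survival gene of the BCL2 family, one of −1.05. Within libraries 7 and 8, 4 of the 10 genes were found more often in Il10-positive cells, namely Socs3 (49.9% against 43.1%), Pim1 (81.3% against 75.4%), Sbno2 (36.9% against 33.2%), and Il1rn (10.9% against 8.76%). The intervals of the other 6 overlapped. The share of 1.80% over all other genes tested includes sparse genes, and no share over genes of like detection was computed. In both libraries the 4 genes had the same direction, with Socs3 at 52.4% against 44.3% in library 7 and 46.5% against 41.3% in library 8. No such difference was detected in libraries 5 and 6, where the intervals of all 10 genes overlapped. Il1rn was found in only 3 thinned cells of each of these libraries, too few to show a difference. The other genes rested on 326 Il10-positive cells, against 5260 in libraries 7 and 8. Overlap therefore does not show equal detection in libraries 5 and 6. There, Socs3 was found in 16.9% of Il10-positive and 16.5% of Il10-negative cells, with 18.1% against 14.9% in library 5 and 15.7% against 17.8% in library 6, and Pim1 in 50.3% and 52.5%. By level, Socs3 was at 148 CPM (141 to 155) in cells of library 7 without Il10 and at 217 CPM (193 to 244) in those with 5 or more Il10 UMIs. In library 8 it was at 139 CPM (131 to 147) and 175 CPM (147 to 207), with intervals that were barely separate. As they leave out variation between cells beyond counting, they do not settle whether the library 8 levels differed.

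**Figure D4:**
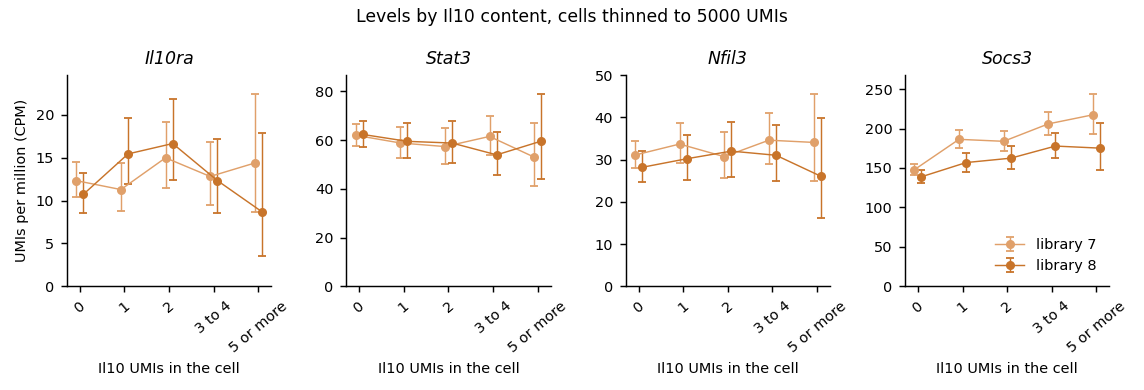
Level in CPM (vertical axes from 0) of Il10ra, Stat3, Nfil3, and Socs3 in thinned cells of libraries 7 and 8, by the number of Il10 UMIs in the cell (horizontal axes), with exact Poisson 95% intervals. Socs3 was at 148 and 139 CPM in cells without Il10 and at 217 and 175 CPM in cells with 5 or more Il10 UMIs. In library 8 these Socs3 intervals were barely separate, ending at 147.2 and beginning at 147.4 CPM. All intervals drawn leave out variation between cells beyond counting. The intervals of the other 3 genes overlapped between these classes.

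Of 7 genes of JAK kinases and of STAT factors other than STAT3, 4 were higher in libraries 7 and 8 and none was lower. The shares higher and lower over all 11174 genes were 14.9% and 15.7%. Jak1, which encodes the kinase bound to IL-10Rα, was at 195, 197, 849, and 798 CPM in libraries 5 to 8 (log2 ratio 2.08). Stat5a, a transducer of IL-2 family cytokines, was at 8.56, 7.84, 136, and 123 CPM (log2 ratio 4.0), Jak2 had a log2 ratio of 1.53, and Stat5b one of 1.28. Tyk2, the kinase bound to IL-10Rβ, named after its values were seen, had a log2 ratio of −0.37 and was not past 2-fold.

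Among 18 other transcription factor genes linked to Il10, 7 were higher, 3 lower, and 8 neither, beside 14.9% higher and 15.7% lower over all 11174 genes. Egr2, an early gene of antigen receptor signaling, was at 1.36 and 1.26 CPM in libraries 5 and 6 and at 11.0 and 10.5 CPM in libraries 7 and 8 (log2 ratio 3.05). Irf4, which directs B cell activation and plasma cell formation, was at 4.91, 6.35, 43.8, and 40.7 CPM (log2 ratio 2.90). Prdm1, which encodes the plasma cell factor Blimp-1, was at 11.6, 13.5, 1.40, and 1.25 CPM (log2 ratio −3.24), and Nfatc1, which encodes a factor activated by calcium signaling, was at 35.6, 39.4, 9.37, and 9.0 CPM (log2 ratio −2.03). Some of these factors were also found at different rates in Il10-positive and Il10-negative cells. Of the 18, 6 were found more often and 1 less often in Il10-positive cells of libraries 5 and 6. In libraries 7 and 8, 2 were found more often and 1 less often. Prdm1, in libraries 5 and 6, was found in 9.51% of Il10-positive and 5.11% of Il10-negative cells, and it was more frequent in the positive cells of both libraries (7.50% against 5.00% and 11.4% against 5.21%). In library 5 alone, the intervals of Prdm1 overlapped. Irf4 was found in 17.9% of Il10-positive and 14.1% of Il10-negative cells of libraries 7 and 8. Further genes with separate intervals, named after their values were seen, included Batf (61.0% against 44.9%) and Ets1 (33.4% against 47.2%) in libraries 5 and 6, and Rel in both pairs (46.0% against 35.2% and 62.9% against 57.3%). The rest of those counted are not named here. Over all 79 list genes tested, markers included, 7 were found more often and 3 less often in Il10-positive cells of libraries 5 and 6 (8.86% and 3.80%), and 9 and 2 in libraries 7 and 8 (11.4% and 2.53%). Detection was not matched between these genes and all genes, so the shares are not directly comparable.

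The nearest members of the IL-10 cytokine family lie beside Il10 on chromosome 1. Il19 lies 79730 bases and Il24 132391 bases before Il10, on the minus strand, with Il20 between them. Il19 was at 0.0892 and 0.136 CPM in libraries 5 and 6 and at 24.4 and 21.8 CPM in libraries 7 and 8 (log2 ratio 7.68, interval 6.84 to 8.68). Il24 had no UMI in libraries 5 and 6 and was at 2.23 and 1.88 CPM in libraries 7 and 8, at least 67.1-fold higher when libraries 5 and 6 are set at a floor of 3 counts over the pair. The exact 95% interval of its log2 ratio, which allows for more counts, began at 5.76. Il24 and Il19, with 0 and 11 UMIs in libraries 5 and 6, reached 100 UMIs only through libraries 7 and 8. The same held for Il1rn and Sdc1, with 26 and 20 UMIs in libraries 5 and 6. Il20, Il22, Ifnl2, and Ifnl3 had no UMI. In libraries 7 and 8, Il19 was found in 5.59% of Il10-positive and 3.40% of Il10-negative cells, and most Il10-positive cells had no Il19 UMI at this depth. On the other side, 28726 bases after Il10, Mapkapk2, which encodes a kinase of the p38 pathway, was at 28.0, 27.8, 61.0, and 58.0 CPM (log2 ratio 1.1). Of 9 genes of this region, 8 were tested: 3 were higher, 4 were neither, and 1, Rassf5, was lower (log2 ratio −1.72). Beside these counts, 14.9% of all 11174 genes were higher and 15.7% lower.

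Of 8 genes listed for mRNA stability and the p38 pathway, 3 were higher and none was lower. All 11174 genes together had 14.9% higher and 15.7% lower. Zfp36, which encodes the mRNA-destabilizing protein tristetraprolin, had a log2 ratio of 1.13, Mapkapk2, whose kinase inactivates that protein, one of 1.1, and Elavl1, which encodes the mRNA-stabilizing protein HuR, one of 1.02. Map3k8, a kinase gene of the ERK pathway, had a log2 ratio of −0.95. Zfp36 was found in 31.2% of Il10-positive and 27.0% of Il10-negative cells of libraries 7 and 8.

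Receptors of the class II family, to which both chains of the IL-10 receptor belong, were not lower as a group by the 2-fold rule. Of 9 genes, 6 were tested, of which 1 was higher, 1 lower, and 4 neither, with a median log2 ratio of −0.69. For comparison, 14.9% of all 11174 genes were higher and 15.7% lower. Ifnlr1, a chain of the interferon λ receptor, had a log2 ratio of −2.72 at 0.110 to 0.914 CPM, and Il20rb one of 1.02 at 0.268 to 0.691 CPM, both near the minimum of 100 UMIs. Ifnar2 and Ifnar1, the chains of the type I interferon receptor, had log2 ratios of −0.94 and −0.70. Il20ra, Il22ra1, and Il22ra2 had no UMI.

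The relatives and targets of the other factors were mixed. For AHR, 3 of 8 listed genes were tested, and Tiparp, a target gene that AHR shares with other pathways, was at 19.4, 20.7, 92.4, and 83.5 CPM (log2 ratio 2.14). Hsp90ab1, a chaperone that holds AHR in the cytoplasm, had a log2 ratio of 1.29, and Arnt, the partner of AHR, one of −0.10. The classical AHR targets Cyp1a1 and Cyp1b1 had no UMI. In the MAF and BACH family, 5 of 7 genes were tested, with Maff (log2 ratio 2.69) and Mafg (1.40), which encode small MAF proteins, higher, and Bach1 (−0.69) and Bach2 (0.65) neither. Nrl, a relative of Maf, had 1 UMI. Of the 3 PAR bZIP genes, whose proteins bind sites like those of NFIL3, Tef was higher (log2 ratio 1.16), Dbp was not past 2-fold (−0.20), and Hlf had no UMI.

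**Figure D5:**
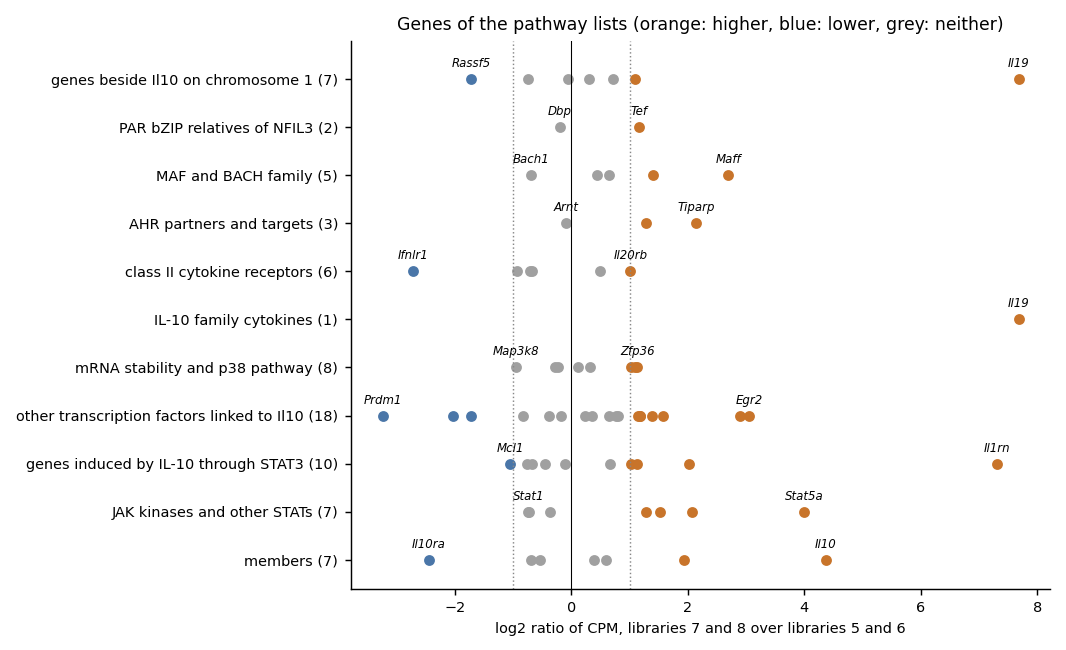
Log2 ratio of CPM, libraries 7 and 8 over libraries 5 and 6 (horizontal axis), for each tested gene (points) of the 7 genes and of 10 related lists (rows, number of genes drawn in parentheses), with dotted lines at 2-fold and the genes at both ends named. Il24, with no UMI in libraries 5 and 6, is not drawn. Among the 7 genes, Il10 (4.37) and Il10ra (−2.45) stood at the ends.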

How the data were processed

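Single-cell libraries (10x Genomics Chromium Single Cell 3′ v3) were prepared from 2 Bregs-CpG and 2 Bregs-TLR samples. Per the submitters' processing notes and the study's methods, the authors aligned and counted with Cell Ranger 3.1.0 on mm10 and combined libraries with aggr, and the deposited values are UMI counts per gene and cell, pooled in 1 matrix. Of 35989 columns, the last 19920 were matched to the barcodes, and 16069 were not used. Here, UMIs were summed per library and divided by its total. Cells were also thinned to 5000 UMIs. A gene was called when pair sums differed by 2-fold, the 4 libraries did not overlap, and it had at least 100 UMIs. This minimum was summed over all kept cells, so a gene could pass it through 1 library pair alone. Intervals at 95% are exact Poisson, conditional, or Clopper-Pearson (SciPy 1.17.1, NumPy 2.4.6, Python 3.11.15). Coverage was tested on simulated data for the conditional interval only, with Poisson counts that held no extra spread between cells. No doublets were removed. TMM scaling (edgeR 4.0.16), other cell filters, fold limits, depths, and leaving out each library were the alternatives. The 7 genes and 18 lists were chosen with earlier results of these data known. Genes named were the 7, up to 4 per list with the largest ratio (all of a list with under 5 tested), and those most like Il10. Sbno2, Tyk2, Batf, Ets1, Rel, and listed genes with no or 1 UMI were named after their values were seen. Some genes of the lists are not reported here and were left out of the list counts.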

Additional observations from a re-analysis of the deposited data

How the results depend on the processing

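The log2 ratio of Il10 (4.37) was 4.21 without mitochondrial, ribosomal protein, and immunoglobulin genes in the total, 4.67 with cells thinned to 5000 UMIs, and 4.21 to 4.52 with each library left out. The share of cells with Il10 in libraries 5 and 6 (3.77%) was 7.46% without thinning, 2.51% at 3000 UMIs, and 0.915% and 0.278% for at least 2 and 3 UMIs. In libraries 7 and 8 (57.0%) it was 70.8%, 44.6%, 34.9%, and 19.2%. Over all genes, 1667 were higher and 1749 lower. With no minimum of UMIs these counts were 2671 and 3208, at 1.5-fold 3146 and 2676, and with a minimum of 1000 UMIs 972 were lower. At 1.5-fold, 2 of the 7 genes were lower. In libraries 5 and 6, the count of genes found less often in Il10-positive cells (1, Il10ra) was 0 at 3000 UMIs, 0 with Il10-positive set at 3 UMIs, and 0 to 1 with a library left out, and at 3000 UMIs 1 gene was found more often. The largest positive difference at 3000 UMIs was that of Stat3, at 5.92 percentage points against 0.46 at 5000 UMIs. Of the 5 genes most like Il10 in these libraries, 3 were kept at a minimum detection of 5%. For Ahr, thinning moved the log2 ratio from 0.59 to 1.20. No direction was reversed among called values, and the causes of these shifts were not tested. No paired analysis was possible because the barcodes name no sample, and thus no replicate number. Maf and Ahr, with 31 to 74 UMIs per library, are limited by depth, as are differences among the 326 Il10-positive cells of libraries 5 and 6.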
